A study of Drosophila melanogaster with 8 samples.

Results

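The vacuolar proton pump genes are 33 of the 13966 protein-coding entries of the whole-fly table and of the 13968 protein-coding entries of the muscle table of this Drosophila melanogaster RNA sequencing study. They were taken by name, as every protein-coding entry whose symbol starts with Vha. The muscle table lists 32 of them under such a symbol, and VhaAC45RP, which it lists as CG31030, was matched by its FlyBase identifier. The study compared wildtype adults with mutant adults, in which anw, a gene placed by the series' title among regulators of alternative splicing, was knocked out. Adult muscle and adult whole flies were sequenced, with 2 wildtype and 2 mutant libraries of each, 8 libraries in all. All stocks and crosses were raised on cornmeal food at 25 °C. The labels give no allele, strain, sex or age, and they do not say whether the repeats came from separate flies or from pools, so a p-value here speaks only of the spread among these libraries, which may be technical. Neither table holds an entry under the symbol anw, so the mutant label was not checked against its RNA.

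The vacuolar ATPase is a rotary proton pump that acidifies lysosomes, endosomes and synaptic vesicles in all animal cells, and in specialised fly epithelia it is placed in the outer membrane to drive ion transport, as in the Malpighian tubule, or to secrete acid, as in the copper cells of the midgut. Its cytoplasmic V1 sector splits ATP with a ring of subunits A and B, turns a rotor of subunits D and F, and is held by stalks of subunits C, E, G and H. Its membrane V0 sector carries protons between subunit a and a ring of subunits c and c'', with subunits d and e and the accessory protein Ac45. Many subunits are encoded in the fly by a broadly transcribed gene and by paralogs transcribed in few tissues, several of them in the testis.

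The 33 genes cover 14 subunit types, with 13 genes for the V1 sector and 20 for the V0 sector. They were divided into 17 widely expressed genes and 16 paralogs of restricted expression, a division made from textbook knowledge with earlier results of these data known. Only 5 subunit types have a single gene, namely B (Vha55), C (Vha44), E (Vha26), G (Vha13) and H (VhaSFD). The a and c subunits have 5 genes each, the e subunit 4, and A and D 3 each.

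The libraries held between 18580751 and 22210197 reads assigned to genes. The muscle libraries carried the RNA of muscle, with Mhc, the myosin heavy chain, at 748, 1128.7, 1086.8 and 1378.8 FPKM (reads scaled by gene length in kilobases and by a library total set by the authors) in wildtype 1, wildtype 2, mutant 1 and mutant 2. They were not muscle alone, because 14 digestive enzymes of the gut summed to 18931 and 23646 FPKM in the wildtype and 14158 and 11999 FPKM in the mutant muscle libraries. They also differed in testis RNA: 12 listed markers of the testis summed to 154 and 48.4 FPKM in wildtype and to 439 and 1.93 FPKM in mutant muscle, with Mst84Da at 0 in all 4. The whole-fly libraries of each genotype were alike in these sums, at 790 and 888 FPKM in wildtype and 612 and 580 FPKM in mutant for the testis markers.

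In wildtype whole flies the 33 genes together had 4054 and 3717 FPKM, and in mutant whole flies 3373 and 3329 FPKM. As a share of all reads this was 0.924% and 0.864% in wildtype against 0.673% and 0.724% in mutant. Both mutant libraries lay below both wildtype libraries on both scales. In muscle the sums were 2332 and 2599 FPKM in wildtype and 2565 and 2506 FPKM in mutant, and the groups overlapped. The 17 widely expressed genes made up nearly all of these sums, with 3912 and 3577 FPKM in wildtype and 3252 and 3214 FPKM in mutant whole flies. The 16 restricted paralogs together had 142 and 141 FPKM in wildtype and 121 and 114 FPKM in mutant whole flies. In bulk samples such as these, fewer cells of a type and less RNA per cell cannot be told apart.

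**Figure D1:**
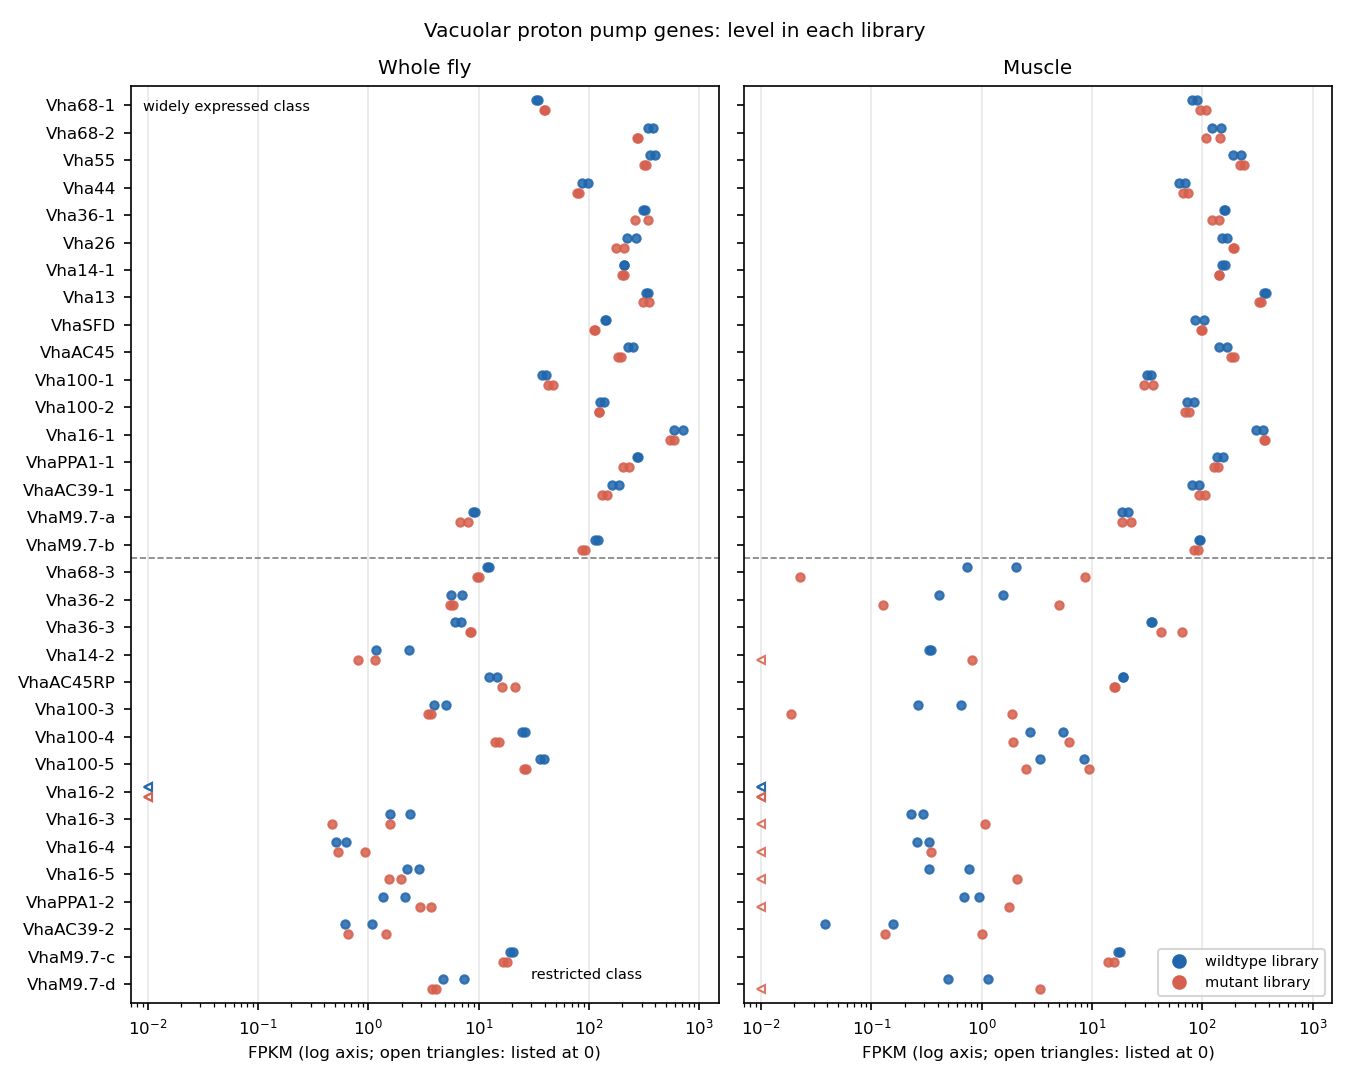
Level of each of the 33 vacuolar proton pump genes in FPKM, on a log axis, in the 4 whole-fly libraries (left) and the 4 muscle libraries (right), with blue points for wildtype, red points for mutant and open triangles for values of 0. The 17 widely expressed genes (above the dashed line) lay between 6.82 and 716 FPKM in whole flies, and the 16 restricted paralogs (below it) between 0 and 38.9 FPKM.

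Within the widely expressed class the proteolipid gene Vha16-1, whose protein forms the c ring, had the highest level in whole flies, at 716 and 587 FPKM in wildtype and 548 and 586 FPKM in mutant. Vha55, the B subunit, and Vha68-2, the main A subunit gene, followed among wildtype flies, at 397 and 358 FPKM and at 377 and 340 FPKM. Vha55 was above Vha68-2 in each whole-fly library, and the levels of these last 2 genes were not tested against each other. The low end of the class was VhaM9.7-a, a small e subunit, at 8.84 and 9.21 FPKM in wildtype whole flies, which is below restricted paralogs such as Vha100-5. In muscle Vha13, the G subunit of the stalk, had 365 and 381 FPKM in wildtype and 325 and 344 FPKM in mutant, and Vha16-1 had 306 and 354 FPKM in wildtype and 369 and 360 FPKM in mutant. Vha13 was thus the higher of the pair in both wildtype muscle libraries and Vha16-1 in both mutant ones. The pump genes kept much of their order across the 2 tables, with a Spearman rho of 0.96 between the wildtype means of the 33 genes, 0.88 within the widely expressed class and 0.86 within the restricted class. These are descriptions over genes that share the same libraries.

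The tables were scaled separately and made with different annotations, so levels in muscle and whole fly are only set side by side. The ratio of the wildtype mean in muscle to that in whole flies had a median of 0.651 over the widely expressed genes. It was 0.577 over the 8971 protein-coding genes at 1 FPKM or more in both tables. Over the 15 restricted paralogs detected it was 0.161, but that filter was not applied to them. Paralogs such as VhaAC39-2, Vha16-3 and Vha100-3 had wildtype muscle means of only 0.0979, 0.259 and 0.459 FPKM. The 0.161 and the 0.577 thus come from unlike sets and are not compared. The ratio was above 1 for 5 pump genes. The D subunit paralog Vha36-3 had a ratio of 5.33, the A subunit gene Vha68-1 one of 2.52, the e subunit gene VhaM9.7-a one of 2.2, the Ac45-related gene VhaAC45RP one of 1.4 and Vha13 one of 1.11. At the other end, Vha100-3, a subunit a paralog, had a ratio of 0.103 in wildtype and 0.264 in mutant, and Vha68-3, the third A subunit gene, one of 0.115 in wildtype and 0.44 in mutant. These low ratios rest on unlike muscle libraries, with Vha100-3 at 0.654 and 0.265 FPKM and Vha68-3 at 2.05 and 0.736 FPKM in wildtype.

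In whole flies 5 of the 31 pump genes tested fell in the mutant and 0 rose (limma on log2(FPKM + 1), Benjamini-Hochberg adjusted p under 0.05 over 11419 entries). Across all entries 20.8% were called, 10.8% lower and 9.94% higher, and the 5 of 31 pump genes stood near these shares. At an unadjusted p under 0.05 there were 13 of the 31, beside 36.4% of all entries. The difference was negative for 25 of the 31, beside 5430 of all 11419 entries. The median was -0.23 on the log2 scale for the 17 widely expressed genes, -0.26 for the 14 restricted paralogs that passed the filter of 1 FPKM in 2 libraries, and 0.02 for all entries. Both mutant libraries lay below both wildtype libraries for 21 of the 31 genes, beside 31.5% of all entries, and above them for 5 genes, beside 34.5%. Those 5 were Vha68-1, Vha36-3, Vha100-1, VhaPPA1-2 and VhaAC45RP. Vha36-3 had 6.85 and 6.05 FPKM in wildtype and 8.56 and 8.39 FPKM in mutant whole flies. Its difference was 0.35 (SE 0.13, adjusted p = 0.0935). The number of calls depended on the library left out, in fits with 1 library in a group. In those fits the median was -0.32 to -0.16 for the widely expressed genes and -0.30 to -0.22 for the restricted ones. A voom fit on recovered reads called 12 of the 31 pump genes, beside 2901 of all 11419 entries. It scaled libraries by their recovered reads and not by the authors' totals, so its scaling changed along with the test. Those totals were 1.0215 and 1.0676 times the recovered reads in wildtype and 0.9349 and 0.984 times in mutant whole flies. With 1 estimate of the spread shared by both tissues, 0 of 25 pump genes were called, beside 546 of 9465 entries. The lower levels stood beside shifts in other tissues' markers. Of 10 muscle markers 8 rose, their sum going from 2485.3 and 2119.1 to 4234.3 and 4156.8 FPKM, and of 14 digestive enzymes of the gut 12 fell and 1 rose, from 23103 and 21615 to 13058 and 13346 FPKM. Among 7 Malpighian tubule markers 2 fell, the sum being 218 and 201 FPKM in wildtype and 166 and 169 FPKM in mutant, and of 11 testis markers tested 3 fell. The part of these shifts in the pump genes' levels was not tested.

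**Figure D2:**
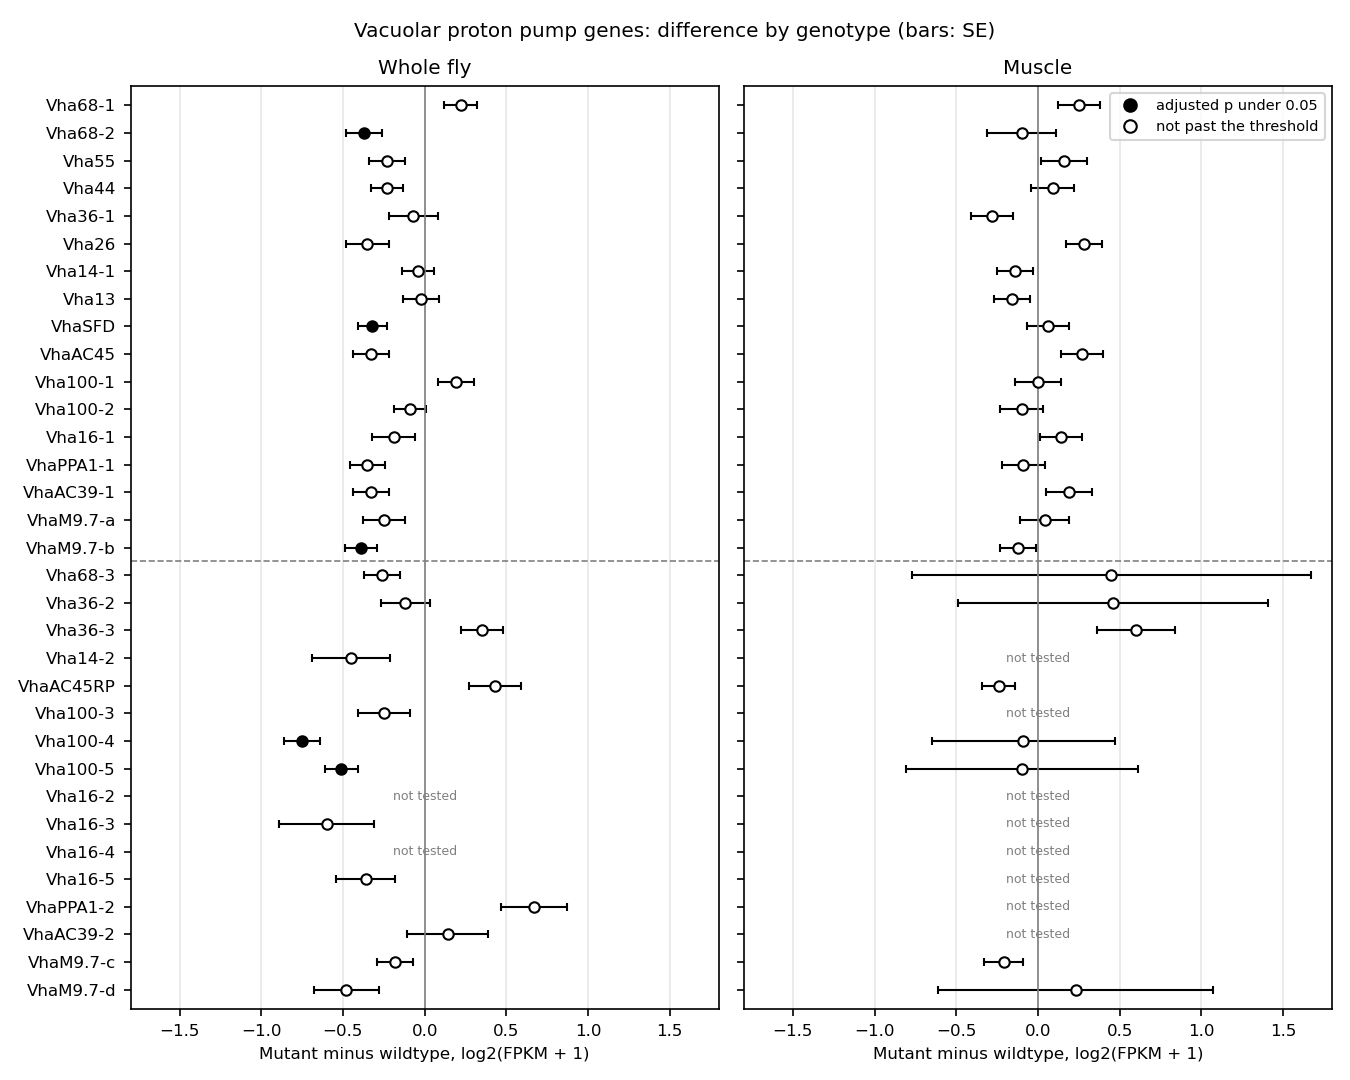
Mutant minus wildtype difference in log2(FPKM + 1) of each pump gene in whole flies (left) and muscle (right), with bars for the standard error over 2 libraries a group and filled points for an adjusted p under 0.05. In whole flies 25 of 31 points lie below 0 and 5 are filled, and in muscle 12 of 25 lie below 0 and none is filled, with 8 genes not tested. Of all entries tested, 5430 of 11419 in whole flies and 4856 of 10079 in muscle were below 0.

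Among the genes of the V1 sector, the A subunit, which holds the catalytic sites, was supplied in whole flies mostly by Vha68-2 (chromosome arm 2L, 12974322 to 12978607, forward strand). Its level was 377 and 340 FPKM in wildtype and 271 and 281 FPKM in mutant, with no overlap. Vha68-2 fell by 0.37 on the log2 scale (SE 0.11, adjusted p = 0.045). This call held in 9 of 15 alternatives. It was lost with no filter (adjusted p = 0.071), a replicate block (0.053) and a spread shared by both tissues (0.268). It was also lost without wildtype 1, wildtype 2 or mutant 1, where the difference was -0.30, -0.45 and -0.35. Vha68-1 lies on the opposite strand of the same arm (13000770 to 13004107), and its values went the other way. It had 34.2 and 33.4 FPKM in wildtype and 39 and 40 FPKM in mutant whole flies, a difference of 0.22 (SE 0.1, adjusted p = 0.15) that did not pass. Vha68-3, which starts 178 bases past the end of Vha68-2 on the same strand, had 12.4 and 11.8 FPKM in wildtype and 10.1 and 9.66 FPKM in mutant, a difference of -0.26 (SE 0.11, adjusted p = 0.141).

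The other ring subunit, Vha55 (B), had 397 and 358 FPKM in wildtype and 314 and 328 FPKM in mutant whole flies. The mutants were lower without overlap, and the difference of -0.23 (SE 0.11, adjusted p = 0.165) did not pass. VhaSFD, the H subunit, known from yeast to restrain ATP hydrolysis when the sectors come apart, had 143 and 139 FPKM in wildtype and 111 and 114 FPKM in mutant. It fell by 0.32 on the log2 scale (SE 0.09, adjusted p = 0.0496), just inside the threshold, and the call held in 6 of 15 alternatives. Settings that lost it included a pseudocount of 0.1 (adjusted p = 0.0512), no filter (0.0572), a replicate block (0.105) and a spread shared by both tissues (0.136). It was also lost without wildtype 1, wildtype 2 or mutant 1, where the difference was -0.30, -0.35 and -0.30. Of the stalk genes, Vha26 (E) had 267 and 221 FPKM in wildtype against 175 and 207 FPKM in mutant, and Vha44 (C), which overlaps Hmgs on the other strand by 548 bases, had 99 and 87.4 FPKM against 78 and 80.5 FPKM. Neither passed (adjusted p = 0.106 and 0.16).

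Not all V1 genes showed this shift. Vha13 (G) had 340 and 329 FPKM in wildtype and 351 and 311 FPKM in mutant whole flies, with overlapping groups. Vha14-1, the F subunit of the rotor, had 207 and 208 FPKM in wildtype and 207 and 198 FPKM in mutant. The main D subunit gene of the rotor, Vha36-1, had 309 and 323 FPKM against 346 and 260 FPKM. Their log2 differences were -0.02 (SE 0.11), -0.04 (SE 0.1) and -0.07 (SE 0.15), with adjusted p = 0.916, 0.815 and 0.742. These values rest on 2579 reads or more in every library.

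Among the V0 genes the smallest adjusted p-values were in the family of subunit a, the membrane protein that lines the proton path and sets where the pump is placed. Vha100-4, which in the fly is needed for acid secretion by the copper cells of the midgut, lies on arm 3R (18386841 to 18389805, reverse strand), 517 bases from Vha100-2 on the same strand. It had 26.4 and 24.5 FPKM in wildtype and 14.1 and 15.4 FPKM in mutant whole flies, from 1421, 1400, 799 and 833 reads. Vha100-4 fell by 0.75 on the log2 scale (SE 0.11, adjusted p = 0.00383), and the call held in 14 of 15 alternatives, the exception being the shared spread (adjusted p = 0.383). Vha100-5 (arm 2L, 11738948 to 11744524, forward strand) had 38.9 and 36.3 FPKM in wildtype and 25.7 and 26.6 FPKM in mutant. It fell by 0.51 (SE 0.1, adjusted p = 0.013), a call that held in 12 of 15 alternatives and was lost with the shared spread (adjusted p = 0.661). It was also lost without wildtype 1 or wildtype 2, where the difference was -0.46 and -0.55. Both genes stood apart between the groups without overlap. The 12 of 14 digestive enzymes that fell in the same libraries are the nearest markers of the gut, and their part in these values was not tested.

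The other subunit a genes did not pass the test. Vha100-2, the most abundant of the family, had 137 and 125 FPKM in wildtype and 123 in each mutant whole-fly library, lower without overlap, with a difference of -0.09 (SE 0.1, adjusted p = 0.554). Vha100-1, known in the fly for its work in synaptic vesicles, had 37.7 and 40.6 FPKM in wildtype and 47.5 and 42.2 FPKM in mutant, higher without overlap. Its difference was 0.19 (SE 0.11, adjusted p = 0.241). None of 8 neuronal markers passed, and their sum was 60.7 and 50.9 FPKM in wildtype and 40.7 and 52.1 FPKM in mutant. Vha100-3, whose whole span of 2935 bases lies inside sano on the other strand, had 3.92 and 5.04 FPKM against 3.46 and 3.68 FPKM, also lower without overlap, with a difference of -0.25 (SE 0.16, adjusted p = 0.281). In whole flies sano had 4.1 and 3.59 FPKM in wildtype and 4.05 and 4.12 FPKM in mutant. How reads were divided between sano and Vha100-3 was not tested.

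For the proteolipid ring, Vha16-1 gave at least 99.1% of the c subunit RNA in every whole-fly library, and its difference of -0.19 (SE 0.13, adjusted p = 0.318) did not pass although the mutants were lower without overlap. The paralogs Vha16-3, Vha16-4 and Vha16-5 reached at most 2.86 FPKM in whole flies. Vha16-2 was listed at 0 in all 8 libraries, and 503 of its 595 bases overlap the antisense RNA asRNA:CR46049, also listed at 0. The c'' subunit genes had differences of opposite sign: VhaPPA1-1 had 280 and 275 FPKM in wildtype and 232 and 205 FPKM in mutant whole flies, a difference of -0.35 (SE 0.11, adjusted p = 0.0586). VhaPPA1-2, 2052 bases away on the same strand, had 1.36 and 2.13 FPKM in wildtype and 3.73 and 2.93 FPKM in mutant, from 18, 30, 52 and 39 reads. Its difference was 0.67 (SE 0.2, adjusted p = 0.0533). Both missed the threshold, and both passed in some alternatives, VhaPPA1-1 in 4 of 15 and VhaPPA1-2 in 7 of 13.

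VhaM9.7-b, the main gene of the small e subunit (arm 3L, 21539862 to 21541215, forward strand), had 121 and 114 FPKM in wildtype and 86 and 92 FPKM in mutant whole flies. It fell by 0.39 (SE 0.1, adjusted p = 0.0294), a call that held in 11 of 15 alternatives and was lost with the shared spread (adjusted p = 0.058). It was also lost without wildtype 1, wildtype 2 or mutant 1, where the difference was -0.36, -0.43 and -0.35. VhaAC39-1, the d subunit that couples the sectors, had 187 and 162 FPKM in wildtype and 131 and 145 FPKM in mutant, a difference of -0.33 (SE 0.11, adjusted p = 0.0813). VhaAC45, the accessory protein Ac45, had 252 and 225 FPKM against 184 and 195 FPKM, a difference of -0.33 (SE 0.11, adjusted p = 0.0678). Both were lower without overlap and did not pass. VhaAC45RP, a gene related to VhaAC45, had 12.5 and 14.7 FPKM in wildtype and 21.4 and 16.2 FPKM in mutant, higher without overlap. Its difference of 0.43 (SE 0.16, adjusted p = 0.0954) did not pass. ATP6AP2, an accessory protein of the pump that the name rule does not take, had 274 and 264 FPKM in wildtype and 251 and 228 FPKM in mutant whole flies (adjusted p = 0.277).

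The make-up of some subunits differed between the tables and between the genotypes. These shares of the summed FPKM of a subunit's genes are descriptions with no test. Vha68-1 gave 8.08% and 8.68% of the A subunit RNA in wildtype whole flies and 12.2% and 12.1% in mutants. In muscle it gave 39.3% and 37.7% in wildtype and 37.9% and 49.9% in mutants, so that in muscle mutant 2 Vha68-1 and Vha68-2 were level, at 108 FPKM each. Vha36-3 gave 2.12% and 1.81% of the D subunit RNA in wildtype and 2.37% and 3.06% in mutant whole flies, against 17.7% and 17.6% in wildtype muscle and 22.4% and 34.9% in mutant muscle. In the a family of whole flies, Vha100-4 went from 10.8% and 10.6% in wildtype to 6.61% and 7.29% in mutant, and Vha100-5 from 15.9% and 15.7% to 12.1% and 12.6%. The share of Vha100-1 was 15.4% and 17.6% in wildtype and 22.3% and 20% in mutant. For each of these 5 genes, named here out of all the paralogs, the whole-fly shares of both mutants lay on the same side of those of both wildtypes. In levels, the groups lay apart with the mutants lower for 31.5% of all entries and higher for 34.5%. The shares within the a family add up to a fixed total, so they are not separate observations. In the e subunit VhaM9.7-b gave between 74.9% and 78% of the RNA in whole flies and between 69.8% and 72.1% in muscle.

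**Figure D3:**
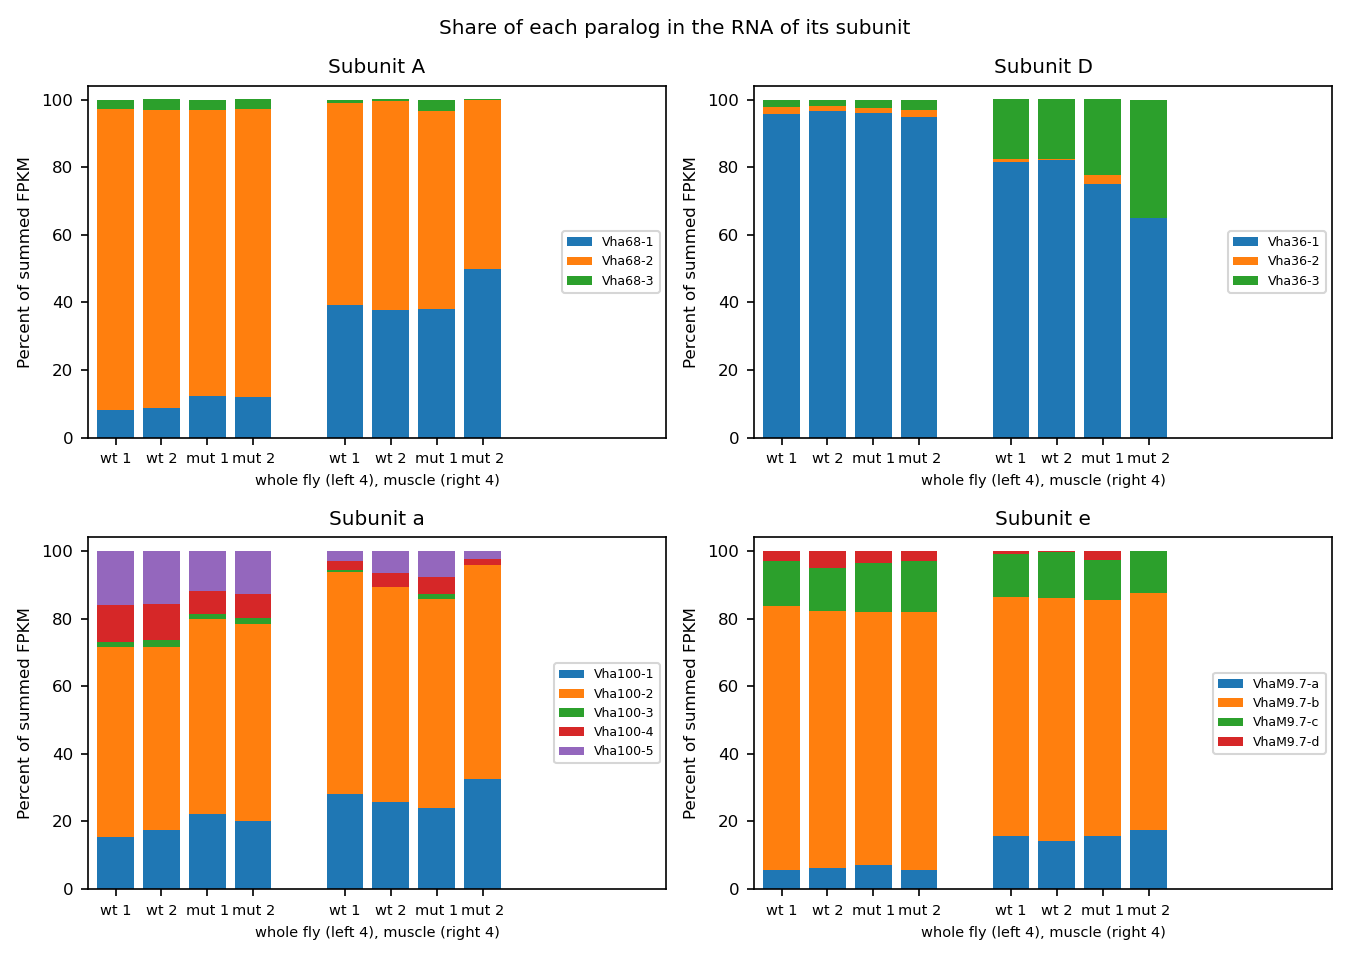
Percent of the summed FPKM of subunits A, D, a and e that each paralog gave in every library, with the 4 whole-fly libraries on the left and the 4 muscle libraries on the right of each panel. Vha68-1 gave 8.08% to 12.2% of subunit A in whole flies and 37.7% to 49.9% in muscle, and Vha36-3 1.81% to 3.06% of subunit D in whole flies and 17.6% to 34.9% in muscle.

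In muscle no pump gene passed the same test. Of the 25 tested 0 were called, beside 0.0% of the 10079 entries of the muscle table, and 0 of the 25 had an unadjusted p under 0.05, beside 14.0% of all entries. A voom fit on the recovered reads also called 0. The 17 widely expressed genes had a median difference of 0.04 on the log2 scale, beside 0.02 for all entries, with 9 positive and 8 negative values between -0.28 and 0.28. The mutant libraries lay above the wildtype libraries for 4 of these 17 genes, beside 23.6% of all entries, and below them for 4, beside 25.3%. In the levels, the widely expressed genes were even across the libraries: in each muscle library every one of them had at least 72.8% of its value in its highest library.

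The 4 that lay higher were Vha68-1, Vha26, VhaAC45 and Vha16-1. Vha26, a stalk subunit, had 151 and 166 FPKM in wildtype and 191 and 192 FPKM in mutant muscle, a difference of 0.28 (SE 0.11, adjusted p = 0.393). VhaAC45 had 143 and 168 FPKM against 181 and 194 FPKM (difference 0.27, SE 0.13, adjusted p = 0.454), and Vha68-1 had 80.1 and 90.1 FPKM against 94.6 and 108 FPKM (difference 0.25, SE 0.13, adjusted p = 0.49). The 4 that lay lower were Vha36-1, Vha13, Vha14-1 and VhaM9.7-b. Vha36-1 had 157 and 162 FPKM in wildtype and 142 and 122 FPKM in mutant muscle, a difference of -0.28 (SE 0.13, adjusted p = 0.434). Its paralog Vha36-3 (X chromosome, 2579091 to 2580560, reverse strand) had 34 and 34.7 FPKM in wildtype and 42.4 and 65.5 FPKM in mutant muscle. Vha36-3 was the only restricted gene that lay higher in both mutants, and its difference of 0.6 (SE 0.24, adjusted p = 0.391) did not pass.

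Most restricted paralogs were uneven across the muscle libraries. VhaM9.7-c and VhaAC45RP were not, with at least 77.9% and 82.2% of their highest value in each library, and Vha16-2 was at 0 in all. Of the 16, 11 had their highest value in mutant 1 and their lowest in mutant 2, an order seen in 0 of the 17 widely expressed genes and in 17.4% of the 12818 protein-coding entries above 0 in muscle. Several of the 11 rest on few reads. Vha14-2, Vha16-5, VhaPPA1-2 and VhaM9.7-d had at most 34 reads in any muscle library and 0 in mutant 2. Vha16-3 had 4 and 3 reads in wildtype and 14 and 0 in mutant. Vha16-4 had 4 and 3 in wildtype and 4 and 0 in mutant, so its place in the count rests on the scaling of a tie. Vha68-3 had 107 and 37 reads in wildtype and 430 and 1 reads in mutant muscle, or 2.05, 0.736, 8.69 and 0.0224 FPKM. Vha36-2, the second D subunit paralog, had 43 and 11 reads in wildtype and 132 and 3 in mutant, and Vha100-3 had 41 and 16 in wildtype and 111 and 1 in mutant. The testis markers had the same order in 10 of the 12 listed in the table, with the sums given above. The 2 mutant libraries thus stood at opposite ends, with both wildtype libraries between them. The fitted differences of these genes rested on single libraries: for Vha68-3 the difference was 0.45 (SE 1.22, adjusted p = 0.914) over all 4 libraries and ranged from -1.48 to 2.07 over the alternatives. Whether the testis RNA set the level of these paralogs was not tested.

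Vha100-4 and Vha100-5 were among the 11, but with wildtype 2 near mutant 1. Vha100-5 had 3.4 and 8.52 FPKM in wildtype and 9.48 and 2.5 FPKM in mutant muscle, and Vha100-4 had 2.74 and 5.42 FPKM in wildtype and 6.23 and 1.93 FPKM in mutant. Wildtype 2 and mutant 1 thus lay above wildtype 1 and mutant 2, as for 13.5% of protein-coding entries. Among the 14 gut enzymes 2 had this split, a share near that of all protein-coding entries, and the rest of the list did not. The 2 were the maltases Mal-A1, at 217, 476, 347 and 144 FPKM, and Mal-A2. The genotype differences of -0.09 (SE 0.56) for Vha100-4 and -0.1 (SE 0.71) for Vha100-5 changed sign without wildtype 2 (to 0.30 and 0.46) and without mutant 2 (to 0.56 and 0.70), so no direction is given for these 2 pump genes in muscle.

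**Figure D4:**
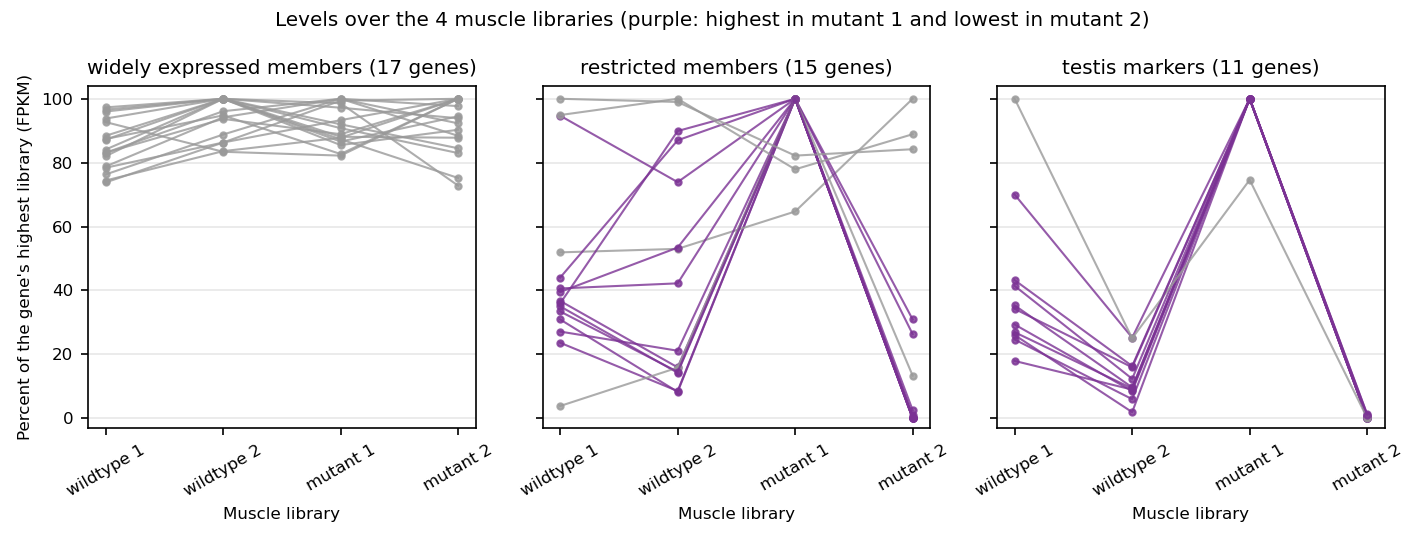
Level of each gene in the 4 muscle libraries as a percent of its own highest muscle library (FPKM), for the 17 widely expressed pump genes (left), the 15 restricted paralogs above 0 (middle) and the 11 testis markers above 0 (right). Purple lines mark genes that were highest in mutant 1 and lowest in mutant 2, which were 0 of the widely expressed genes, 11 of the restricted paralogs and 10 of the testis markers.

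The genotype difference was compared between the tissues by an interaction term over the 9465 genes tested in both tables. Of all these genes 552 were called, 5.83%, and of the 25 pump genes among them 0 were called (limma, Benjamini-Hochberg adjusted p under 0.05), with 5 at an unadjusted p under 0.05, beside 27.3% of all genes. The smallest p-values were those of VhaAC45, with a difference in muscle minus that in whole fly of 0.6 (SE 0.16, adjusted p = 0.0862), and of Vha26, with 0.63 (SE 0.19, adjusted p = 0.105). VhaAC45RP had -0.67 (SE 0.21, adjusted p = 0.116), VhaAC39-1 0.52 (SE 0.18, adjusted p = 0.141) and VhaSFD 0.38 (SE 0.14, adjusted p = 0.163). The lower values of whole flies are thus not shown to differ from those of muscle for any pump gene. Vha36-2, Vha68-3 and VhaM9.7-d, paralogs with the uneven library order described for muscle, had wide errors over all 8 libraries. Their values of muscle minus whole fly were 0.58 (SE 1.07), 0.72 (SE 1.38) and 0.72 (SE 0.94). Leaving out muscle mutant 2 changed these interaction results, but that fit has 1 mutant muscle library, so no call is drawn from it.

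Other genes that work with the pump were taken from fixed lists, none of which had a call in muscle. Their counts in whole flies are to be read beside the 9.94% of all entries that rose and the 10.8% that fell. Of 13 tested genes that control or sense the pump, 1 rose in whole flies and 1 fell. Lamtor3, part of the lysosomal scaffold that senses amino acids with the pump, had 22.4 and 18.9 FPKM in wildtype and 34.2 and 26.5 FPKM in mutant and rose by 0.53 (SE 0.15, adjusted p = 0.0471), and mtd, a relative of the oxidation resistance proteins that bind the pump in mammals, fell by 0.5 (SE 0.1, adjusted p = 0.0137). Of 17 lysosomal genes 3 rose and 3 fell, with the protease CtsL1 at 302 and 279 FPKM in wildtype and 582 and 490 FPKM in mutant, a rise of 0.88 (SE 0.12, adjusted p = 0.00294). The glucosidase Gba1a had 29.7 and 23.5 FPKM in wildtype and 10.1 and 14 FPKM in mutant and fell by 1.09 (SE 0.18, adjusted p = 0.00558).

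Of 20 transporters, channels and carbonic anhydrases that act beside the pump in epithelia, 1 rose and 5 fell in whole flies, beside 20.8% of all entries called in either direction. Nha1 had 38.1 and 37.1 FPKM in wildtype and 19.2 and 20 FPKM in mutant, without overlap, and fell by 0.91 (SE 0.1, adjusted p = 0.00105). The potassium channels Irk2 and Irk3 fell by 0.62 (SE 0.1, adjusted p = 0.0063) and by 0.73 (SE 0.12, adjusted p = 0.00506). Irk3 is also in the list of Malpighian tubule markers and is counted among those that fell. The chloride channel ClC-a had 11.1 and 11.6 FPKM in wildtype and 19.7 and 22.8 FPKM in mutant and rose by 0.84 (SE 0.12, adjusted p = 0.00307). In muscle ClC-a had 17.6 and 17.5 FPKM in wildtype and 120 and 214 FPKM in mutant, a difference of 3.12 (SE 0.31) that did not pass (adjusted p = 0.167). Over the lists the median differences in whole flies were 0.08 for pump control, -0.05 for lysosomal genes and -0.01 for ion partners, beside 0.02 for all entries.

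The classes also differed in gene structure. In the reference annotation, which gave the same coordinates as the tables for all 33 genes, 8 of the 16 restricted paralogs had a single coding exon, against 4 of the 17 widely expressed genes. A single annotated transcript was listed for 11 restricted paralogs and 3 widely expressed genes, and the highest number was 10, for Vha100-1. Each table gives 1 value per gene, so isoforms of these genes were not analysed here. The genes lie on all the large arms, with 12 on 3R, 8 on 2R, 6 on 2L, 5 on 3L and 2 on X. The closest neighbours among the pump genes were 5 pairs, with 178 to 19476 bases between them. Each pair encodes the same subunit, and 2 of these pairs were formed by the A genes. Other neighbours lay farther apart, some of them also of the same subunit, such as VhaM9.7-c and VhaM9.7-a on 3L. VhaM9.7-c, at 20.4 and 19.2 FPKM in wildtype and 16.7 and 18 FPKM in mutant whole flies, lies within Teh2 on the same strand, and how reads were divided between them is not given in the sources used here. Teh2 had 4.31 and 3.79 FPKM in wildtype and 2.84 and 4.35 FPKM in mutant whole flies.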

How the data were processed

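RNA was sequenced from 8 libraries, 2 for each combination of tissue and genotype. The authors deposited 2 tables of FPKM, reads scaled by gene length and by a library total, per the file headers and values. The sources used here do not give the aligner, counter, strand setting or filters. Release 6 coordinates, 1-based, were used as deposited, and not mm10, a mouse build named in the submitters' processing notes. All columns were assigned to samples by name. Those of the whole-fly table show genotype and repeat alone, and were taken as whole fly because all 4 muscle samples are named in the other table. Value times length gave whole reads for 100% of values within 0.1 reads, and the total behind the FPKM was 0.8839 to 1.0894 times the recovered reads, a factor that differs by library.

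Each tissue was fitted alone with limma 3.58.1 in R 4.3.3 (moderated, with trend) on log2(FPKM + 1), for entries at 1 FPKM or more in at least 2 of 4 libraries, with Benjamini-Hochberg adjustment over all entries and a threshold of 0.05. Differences are mutant minus wildtype and understate those of low genes. The interaction used all 8 libraries. The main fit of each tissue was tested on simulated data, and the interaction and the alternatives were not. Named genes were all members, plus, in the pump control, lysosome and ion partner lists, up to 4 passing genes by smallest p, of which the text gives the leading ones. Members, lists and tests were chosen with earlier results of these data known. Annotation was Ensembl release 115. Alternatives varied the pseudocount, filter, scaling, entries, length trend, test, replicate block, shared spread and libraries left out. The voom alternative changed the test and also replaced the authors' library totals by the recovered reads. Sequences were not used here.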

Additional observations from a re-analysis of the deposited data

How the results depend on the processing

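In muscle the number of entries called was 0 and became 2 with a minimum of 5 FPKM, 2 with protein-coding entries only and 267 with a spread shared by both tissues, and 0 to 12 with a library left out, while the number of pump genes called was 0 under all of these. The median of the widely expressed class in muscle was -0.06 to 0.10 with a library left out. That of the restricted class, 0.07, was -0.19 with a pseudocount of 0.1, -0.10 with a minimum of 5 FPKM, -0.25 with voom and -0.25 to 0.63 with a library left out. In whole flies the 2372 calls became 546 with the shared spread and 1409 to 3213 with a library left out. The 5 pump genes called became 3 with no filter, 9 with quantile scaling, 12 with voom, 0 with the shared spread and 2 to 10 with a library left out. Over all entries of whole flies, no filter gave 1779 calls, quantile scaling 2344 and voom 2901. Voom, which changed the library totals as well as the test, moved the median of all entries in whole flies from 0.02 to -0.1. The share of higher calls went from 47.8% to 30.9%. The median of the widely expressed class in whole flies, -0.23, was -0.36 with quantile scaling, -0.35 with voom and -0.32 to -0.16 with a library left out. That of the restricted class, -0.26, was -0.30 with a pseudocount of 0.1, -0.16 with a pseudocount of 5, -0.18 with a minimum of 5 FPKM, -0.43 with voom and -0.30 to -0.22 with a library left out. The interaction had 552 calls and 11 to 1690 with a library left out, and its count of pump genes was 1 with quantile scaling (VhaAC45) and 0 to 3 with a library left out. The cause of these changes was not tested.

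Some differences of genes that were not called changed sign. In muscle, quantile scaling gave Vha100-1 0.06, Vha100-2 0.02, Vha13 0.08, Vha14-1 0.07, Vha68-2 0.12, VhaM9.7-b 0.07 and VhaPPA1-1 0.11. Voom gave Vha36-2 -0.14, Vha68-3 -1.48, VhaM9.7-a 0.00 and VhaM9.7-d -1.04, a pseudocount of 0.1 gave Vha68-3 -0.37 and VhaM9.7-d -0.53, a pseudocount of 5 gave Vha100-1 0.00, and removing the length trend gave Vha44 -0.01. In whole flies, removing the length trend gave Vha13 0.01 and Vha14-1 0.00. With a library left out, the muscle differences ranged from -0.13 to 0.13 for Vha100-1, -0.74 to 0.56 for Vha100-4, -0.89 to 0.70 for Vha100-5, -0.31 to 0.12 for Vha68-2, -0.09 to 0.18 for VhaM9.7-a, -0.03 to 1.30 for VhaM9.7-d and -0.07 to 0.18 for VhaSFD. In whole flies they ranged from -0.10 to 0.07 for Vha13, -0.28 to 0.13 for Vha36-1, -0.27 to 0.02 for Vha36-2 and -0.04 to 0.42 for VhaAC39-2.

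With the replicate number as a replicate block, whole flies had 2807 calls and 7 pump genes, muscle 0 and 0, and the interaction 4 and 0. Vha68-2 (adjusted p = 0.053) and VhaSFD (0.105) were lost, and Vha16-3, VhaAC45RP, VhaM9.7-d and VhaPPA1-2 were gained. Same-numbered libraries deviated together with a correlation of 0.389 in muscle and -0.149 in whole flies, so the numbers are not shown to pair the samples. Depth limits the restricted paralogs most: in muscle 8 were not tested, and genes such as Vha16-4 rest on 0 to 4 reads.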
